A study of Mus musculus with 8 samples.

Results

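Laminins are trimers of an α, a β and a γ chain that form the sheet of the basement membrane to which epithelial cells attach. In skin, the laminin that holds the α3 and β3 chains is bound by α6β4 integrin at hemidesmosomes, the junctions that fasten basal keratinocytes to the membrane. Inside the cell, plectin and the epithelial form of dystonin tie that integrin to keratin filaments, and collagen XVII spans the cell membrane beside it. Laminins with the γ1 chain, joined to β1 or β2, are found in the basement membranes of many tissues. The genes described here encode laminin chains (Lama3, Lama5, Lamb1, Lamb2, Lamb3 and Lamc1) and hemidesmosome proteins (Dst for dystonin, Plec for plectin, Col17a1 for collagen XVII). They were chosen by symbol in the platform annotation, with every probe set that carries that symbol alone. Of the 9 genes, 8 had such a probe set, and together they had 18 of the 45037 probe sets tested, against 17097 genes in all. Lama5 was not analysed here.

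Expression was measured with 8 single-colour Affymetrix arrays in tumour cells of mouse skin squamous cell carcinoma, 4 from poorly differentiated tumours (PD-SCC, written PD/S-SCC in the sample titles) and 4 from well differentiated ones (WD-SCC). All tumours descend from mice of the strain label FVB/C57/Bl6 carrying K14-HPV16, a transgene in which the keratin 14 promoter drives papillomavirus genes in basal keratinocytes, and arose spontaneously or after DMBA-TPA treatment; the labels do not say which lineage arose in which way. They were grown orthotopically in nude mice, which lack mature T cells but keep their own fibroblasts, vessels and other blood cells, and were passed on serially. Host and tumour are both mouse, so the arrays cannot tell their RNA apart. Cells were depleted of blood and endothelial cells and sorted for α6-integrin and CD34. Both stages came from the tumour lineages OT7 (2 arrays per stage), OT14 and OT15 (1 array per stage each). The sample titles call each array a biological replicate, without stating whether the paired OT7 arrays stem from different tumours. The p-values thus cover only the spread between these arrays, which may be less than that between tumours. Precision is limited by how few arrays there are. All values are deposited log2 values, and differences are PD-SCC minus WD-SCC.

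The median value of an array was 3.66 to 3.77. The highest of 15 bacterial control probe sets, used as the background level of an array, lay at 3.61 to 3.81 on PD-SCC arrays and at 3.82 to 4.37 on WD-SCC arrays. A nonspecific control of high GC content also differed between the stages, at 6.66 to 7.08 on PD-SCC arrays and at 8.0 to 8.53 on WD-SCC arrays, and its part in the results was not tested. Correlation across probe sets, which are not independent replicates, was 0.942 to 0.978 between PD-SCC arrays, 0.915 to 0.951 between WD-SCC arrays and 0.837 to 0.900 between stages.

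The genes moved in both directions. The α3 and β3 laminin chains and collagen XVII were lower in PD-SCC, while the β1 and γ1 chains, plectin and the brightest probe set of dystonin were higher. By probe set, 8 of 18 were higher in PD-SCC (limma with lineage as a block, adjusted p under 0.05), where 5.49% of all probe sets were. Another 3 of 18 were lower, where 2.84% of all were, and 7 did not pass. By the brightest probe set of each gene, 4 of 8 genes were higher, against a background of 6.72%, and 3 of 8 were lower, against 4.25%. The median difference was 1.03 over the 18 probe sets and -0.04 over all probe sets. Lamb1, Dst and Plec have several probe sets and so weigh more in that median than Lamb3, Col17a1 and Lamb2, which all had negative differences. The PD-SCC arrays lay wholly above the WD-SCC arrays for 11 probe sets (9.65% of all) and wholly below them for 4 (10.7% of all), and for 3 the stages overlapped. In 16 of 18 probe sets the difference had 1 sign in every lineage. No share of all probe sets is given here for that count, and probe sets of the same gene are not independent. Of all probe sets called, 65.9% were higher in PD-SCC, against 53.0% after cyclic loess and 52.7% after scaling to the 75th percentile, which moved the median over all probe sets to -0.19. In bulk RNA of sorted cells, fewer cells of a type and less RNA per cell cannot be told apart.

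**Figure D1:**
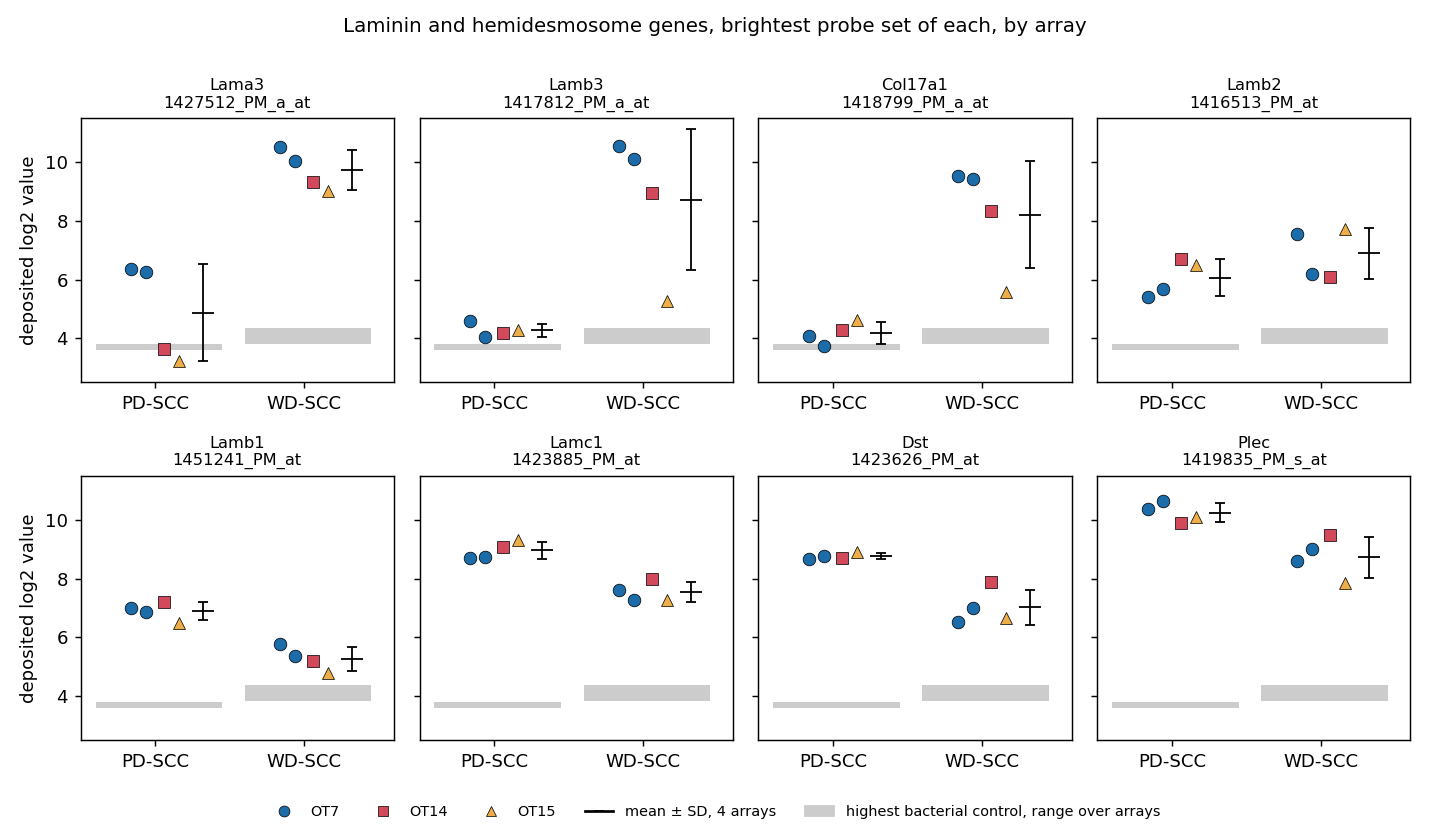
Deposited log2 value (y axis) of the brightest probe set of each of the 8 genes on every array, PD-SCC left and WD-SCC right, with symbols for the lineages, bars for the mean ± SD of 4 arrays and grey bands for the range of the highest bacterial control. Lama3, Lamb3 and Col17a1 lie lower on every PD-SCC array than on any WD-SCC array, Lamb1, Lamc1, Dst and Plec lie higher, and Lamb2 overlaps.

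The start regions of 4 of these genes are shown because they stand on either side of that split, and because dystonin, whose probe sets disagree, has 2 annotated starts. The windows come from RefSeq (build GRCm38.p6) and hold 300 bases, 250 before and 50 after the start. Capitals mark matches on either strand to the GC box GGGCGG, the E-box CAGGTG and the TATA box TATAAA, and marked matches do not overlap. The AP-1 motif TGANTCA was also searched and has no match in these windows. For Lamb3, the second of a pair of overlapping windows is shown, since the first holds no match. The windows lie at chr1:34011345-34011644 on the plus strand (Dst start 1), chr1:34160010-34160309 on the plus strand (Dst start 2), chr1:193301993-193302292 on the plus strand (Lamb3), chr19:47691993-47692292 on the minus strand (Col17a1) and chr12:31265043-31265342 on the plus strand (Lamb1).
Dst start 1: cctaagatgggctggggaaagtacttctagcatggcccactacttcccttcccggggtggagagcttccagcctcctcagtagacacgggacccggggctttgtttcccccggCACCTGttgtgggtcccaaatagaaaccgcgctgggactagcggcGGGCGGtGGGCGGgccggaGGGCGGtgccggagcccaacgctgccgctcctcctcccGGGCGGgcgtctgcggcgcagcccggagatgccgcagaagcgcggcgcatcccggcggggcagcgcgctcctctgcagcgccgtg
Dst start 2: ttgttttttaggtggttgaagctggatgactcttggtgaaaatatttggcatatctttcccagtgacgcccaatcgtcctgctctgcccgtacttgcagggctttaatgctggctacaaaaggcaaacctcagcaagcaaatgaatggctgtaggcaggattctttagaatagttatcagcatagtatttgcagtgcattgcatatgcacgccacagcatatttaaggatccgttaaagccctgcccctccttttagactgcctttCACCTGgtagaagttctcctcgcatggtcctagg
Lamb3: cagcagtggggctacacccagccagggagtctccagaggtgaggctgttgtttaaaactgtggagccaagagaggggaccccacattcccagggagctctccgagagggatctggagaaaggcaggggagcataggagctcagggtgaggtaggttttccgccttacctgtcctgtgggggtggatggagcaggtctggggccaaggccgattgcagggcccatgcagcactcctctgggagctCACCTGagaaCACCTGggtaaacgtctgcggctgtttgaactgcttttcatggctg
Col17a1: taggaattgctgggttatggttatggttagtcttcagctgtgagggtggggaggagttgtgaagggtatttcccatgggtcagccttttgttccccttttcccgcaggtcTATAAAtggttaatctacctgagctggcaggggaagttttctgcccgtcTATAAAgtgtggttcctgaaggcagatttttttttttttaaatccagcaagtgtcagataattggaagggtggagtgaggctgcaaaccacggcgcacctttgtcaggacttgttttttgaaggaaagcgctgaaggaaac
Lamb1: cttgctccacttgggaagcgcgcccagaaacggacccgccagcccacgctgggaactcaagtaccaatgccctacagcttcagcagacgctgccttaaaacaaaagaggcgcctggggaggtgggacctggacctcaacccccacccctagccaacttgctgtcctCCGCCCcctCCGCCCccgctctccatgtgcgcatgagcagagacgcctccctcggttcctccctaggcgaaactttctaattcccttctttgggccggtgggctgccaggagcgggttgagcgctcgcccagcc
Start 1 of Dst had a GC content of 70.3% with 4 GC box matches and 1 E-box match, and start 2 had 46.0% with 1 E-box match. The Lamb3 window had 59.3% and 2 E-box matches. Col17a1 had 46.3% and 2 TATA box matches, and Lamb1 had 63.7% and 2 GC box matches. Over all 32851 annotated windows the median GC content was 52.7%, and 35.7% held a GC box, 20.2% this E-box, 13.6% the TATA box and 7.81% the AP-1 motif. The matches are letters only and say nothing about what binds there.

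Lama3 encodes the α3 chain of the hemidesmosomal laminin. Its probe set 1427512_PM_a_at stood at 6.36 and 6.26 in OT7, 3.65 in OT14 and 3.24 in OT15 PD-SCC cells, against 10.52 and 10.05 in OT7, 9.35 in OT14 and 9.03 in OT15 WD-SCC cells. Every PD-SCC array lay below every WD-SCC array, and among the PD-SCC arrays those of OT7 kept the highest values. The mean was 4.88 ± 1.66 in PD-SCC and 9.74 ± 0.67 in WD-SCC (SD, n = 4 each). Lama3 fell by 4.86 on the log2 scale (SE 0.39, 29.0-fold, adjusted p = 0.00458). It was the one gene of the group that passed within each lineage, with differences of -3.97 in OT7 (adjusted p = 0.0162), -5.70 in OT14 (adjusted p = 0.0471) and -5.79 in OT15 (adjusted p = 0.0424). The OT15 PD-SCC value lies under that array's bacterial control, so within OT15 the change is at least 37.3-fold lower. The call held without any 1 array, with adjusted p between 0.0117 and 0.0221.

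The other Lama3 probe set, 1444860_PM_at, averaged 3.81 ± 0.10 in PD-SCC and 3.96 ± 0.34 in WD-SCC, a difference of -0.15 ± 0.14 (SE, adjusted p = 0.507). It exceeded the bacterial control on 1 of 4 WD-SCC arrays, so it lay near background where the first probe set was bright. On PD-SCC arrays, where the control itself was lower, it exceeded the control on 4 of 4. The stage differences of the Lama3 probe sets differed by 4.71 ± 0.47 (SE, adjusted p = 0.00801 over 11801 such pairs). A probe set so near background cannot show a fall, so this contrast adds nothing to the fall of 1427512_PM_a_at.

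Lamb3 encodes the β3 chain, the partner of α3 in the hemidesmosomal laminin. It stood at 4.58 and 4.04 in OT7, 4.20 in OT14 and 4.28 in OT15 PD-SCC cells, against 10.55 and 10.12 in OT7, 8.96 in OT14 and 5.27 in OT15 WD-SCC cells. All PD-SCC arrays were low and alike, and the OT15 WD-SCC array was far below the other WD-SCC arrays. The mean was 4.28 ± 0.22 in PD-SCC and 8.72 ± 2.40 in WD-SCC (SD, n = 4 each), so Lamb3 fell by 4.45 (SE 0.87, 21.8-fold, adjusted p = 0.0391). Within lineages the difference was -6.02 in OT7 (adjusted p = 0.0162), -4.76 in OT14 (adjusted p = 0.0651) and -0.98 in OT15 (adjusted p = 0.361). Without any 1 OT7 or OT14 array the adjusted p was 0.0848 to 0.116, and without an OT15 array it was 0.00958 with a difference of -5.60.

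Col17a1 encodes collagen XVII, the transmembrane hemidesmosome collagen also known as a bullous pemphigoid antigen. It stood at 4.10 and 3.75 in OT7, 4.28 in OT14 and 4.62 in OT15 PD-SCC cells, against 9.54 and 9.42 in OT7, 8.33 in OT14 and 5.60 in OT15 WD-SCC cells. The WD-SCC arrays ranked as they did for Lamb3, with OT15 WD-SCC the lowest of its stage and 0.98 above its PD-SCC partner. The mean was 4.19 ± 0.37 in PD-SCC and 8.22 ± 1.83 in WD-SCC, and Col17a1 fell by 4.04 (SE 0.78, 16.4-fold, adjusted p = 0.0381). Within lineages it differed by -5.56 in OT7 (adjusted p = 0.0162), -4.05 in OT14 (adjusted p = 0.0512) and -0.98 in OT15 (adjusted p = 0.200). Without any 1 OT7 or OT14 array the adjusted p was 0.0846 to 0.114, and without an OT15 array it was 0.0121 with a difference of -5.05.

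Lamb1 encodes the β1 chain found in most laminins outside the epidermal junction. Its brightest probe set, 1451241_PM_at, stood at 6.99 and 6.88 in OT7, 7.21 in OT14 and 6.50 in OT15 PD-SCC cells, against 5.76 and 5.35 in OT7, 5.20 in OT14 and 4.77 in OT15 WD-SCC cells. The stages did not overlap, and OT15 was the lowest lineage in each. The mean was 6.89 ± 0.30 in PD-SCC and 5.27 ± 0.41 in WD-SCC, so Lamb1 rose by 1.62 ± 0.16 (SE, 3.08-fold, adjusted p = 0.00714), and the call held without any 1 array. Within lineages the difference was 1.38 in OT7 (adjusted p = 0.0426), 2.00 in OT14 (adjusted p = 0.117) and 1.73 in OT15 (adjusted p = 0.0995).

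The other Lamb1 probe sets pointed the same way. Probe set 1424114_PM_s_at averaged 6.25 ± 0.31 in PD-SCC and 4.51 ± 0.50 in WD-SCC and rose by 1.74 ± 0.23 (SE, adjusted p = 0.0152), with 2 of 4 WD-SCC arrays above the bacterial control. Its adjusted p was 0.057 without PD-SCC array 1 of OT7 and 0.0524 without an OT14 array. Probe set 1424113_PM_at averaged 4.32 ± 0.19 in PD-SCC and 3.45 ± 0.13 in WD-SCC, where no array exceeded the control, so the rise was at least 1.16-fold (adjusted p = 0.0163). Leaving out an OT14 array gave it an adjusted p of 0.0543. Probe set 1446180_PM_at averaged 4.88 ± 0.51 in PD-SCC and 3.69 ± 0.23 in WD-SCC, a difference of 1.19 ± 0.27 that did not pass (SE, adjusted p = 0.0552). It passed within OT7, with a rise of at least 2.13-fold and an adjusted p of 0.0278, and it passed without the lineage block (adjusted p = 0.0336).

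Lamc1 encodes the γ1 chain, which pairs with β1 and β2. Probe set 1423885_PM_at stood at 8.72 and 8.75 in OT7, 9.09 in OT14 and 9.33 in OT15 PD-SCC cells, against 7.63 and 7.29 in OT7, 8.0 in OT14 and 7.28 in OT15 WD-SCC cells. All PD-SCC arrays were above all WD-SCC arrays. Lamc1 averaged 8.97 ± 0.29 in PD-SCC and 7.55 ± 0.34 in WD-SCC and rose by 1.42 ± 0.18 (SE, 2.68-fold, adjusted p = 0.0139), with 1.28 in OT7 (adjusted p = 0.0389), 1.09 in OT14 (adjusted p = 0.207) and 2.04 in OT15 (adjusted p = 0.0715). Without PD-SCC array 1 or 2 of OT7 its adjusted p was 0.0502 and 0.0504. Probe set 1423886_PM_at averaged 8.78 ± 0.22 in PD-SCC and 7.38 ± 0.25 in WD-SCC and rose by 1.40 ± 0.15 (SE, adjusted p = 0.00918), a call that held without any 1 array. The stage differences of the Lamc1 probe sets differed by -0.03 ± 0.19 (SE, adjusted p = 0.951).

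Lamb2 encodes the β2 chain. It stood at 5.40 and 5.67 in OT7, 6.72 in OT14 and 6.51 in OT15 PD-SCC cells, against 7.57 and 6.19 in OT7, 6.10 in OT14 and 7.73 in OT15 WD-SCC cells. The stages overlapped and the OT7 WD-SCC arrays differed from each other by more than the stage means did. The mean was 6.07 ± 0.64 in PD-SCC and 6.89 ± 0.87 in WD-SCC, and the difference of -0.82 ± 0.46 did not pass (SE, adjusted p = 0.299).

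Plec encodes plectin, a large plakin that links integrins and keratin at hemidesmosomes and also binds other filaments in many cell types. Its brightest probe set, 1419835_PM_s_at, stood at 10.37 and 10.64 in OT7, 9.91 in OT14 and 10.09 in OT15 PD-SCC cells, against 8.60 and 9.01 in OT7, 9.48 in OT14 and 7.84 in OT15 WD-SCC cells. The stages did not overlap, with the OT14 arrays closest to each other. The mean was 10.25 ± 0.32 in PD-SCC and 8.73 ± 0.69 in WD-SCC, and Plec rose by 1.52 ± 0.30 (SE, 2.87-fold, adjusted p = 0.0406), with 1.70 in OT7 (adjusted p = 0.0364), 0.43 in OT14 (adjusted p = 0.768) and 2.25 in OT15 (adjusted p = 0.0816).

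Plec probe set 1434610_PM_at averaged 9.31 ± 0.39 in PD-SCC and 7.92 ± 0.68 in WD-SCC and rose by 1.38 ± 0.26 (SE, adjusted p = 0.0365). Probe set 1437554_PM_at averaged 8.09 ± 0.84 in PD-SCC and 6.10 ± 0.64 in WD-SCC, a difference of 1.99 ± 0.47 that did not pass (SE, adjusted p = 0.0598). In OT14 it stood at 6.96 in PD-SCC and 6.86 in WD-SCC. The Plec calls changed with the processing and with the arrays used. After cyclic loess the adjusted p of 1419835_PM_s_at was 0.0742 and that of 1434610_PM_at was 0.0705. Leaving out any 1 OT7 or OT15 array gave 1419835_PM_s_at an adjusted p of 0.0899 to 0.116, and leaving out an OT14 array gave 0.0248. The value of 1434610_PM_at was 0.053 to 0.104 without any 1 array and 0.0529 without the lineage block, while 1437554_PM_at passed without the block (adjusted p = 0.0438).

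**Figure D2:**
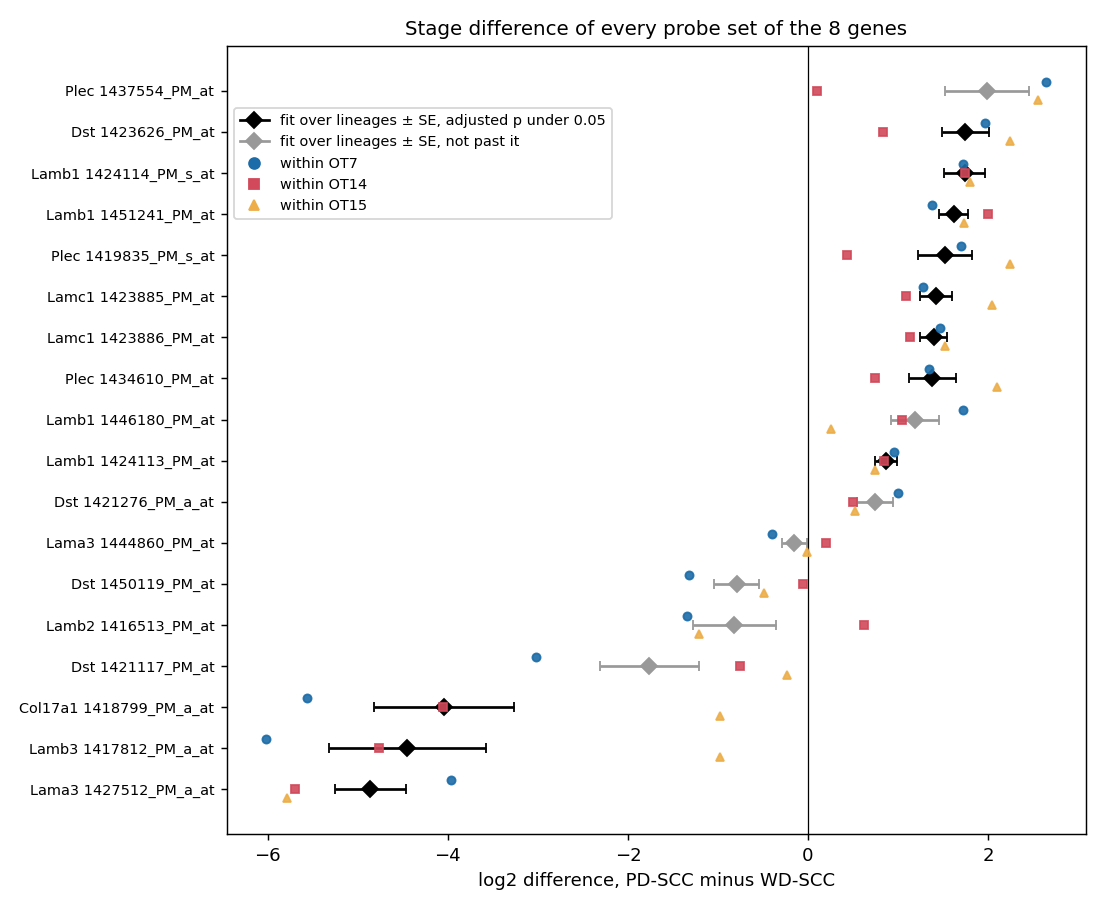
Log2 difference, PD-SCC minus WD-SCC (x axis), of each of the 18 probe sets, with diamonds for the estimate over lineages, bars for its SE, black for an adjusted p under 0.05, and coloured symbols for the difference within each lineage. Lamb3 and Col17a1 in OT15 lie at -0.98, near 0 beside the other lineages, while Lama3 probe set 1427512_PM_a_at lies at -3.97 or below in every lineage and the other Lama3 probe set lies between -0.40 and 0.20.

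Dst gives several isoforms from different starts, among them the epithelial BP230 of hemidesmosomes and larger forms in nerve, muscle and other cells, and its 4 probe sets did not move together. The annotation does not name isoforms, and which of them each probe set reads was not tested. The brightest, 1423626_PM_at, stood at 8.69 and 8.78 in OT7, 8.71 in OT14 and 8.91 in OT15 PD-SCC cells, against 6.53 and 7.01 in OT7, 7.88 in OT14 and 6.67 in OT15 WD-SCC cells. All PD-SCC arrays were above all WD-SCC arrays and close to each other. The mean was 8.77 ± 0.10 in PD-SCC and 7.02 ± 0.61 in WD-SCC, and it rose by 1.75 ± 0.26 (SE, 3.37-fold, adjusted p = 0.0192), with 1.97 in OT7 (adjusted p = 0.0298), 0.83 in OT14 (adjusted p = 0.411) and 2.24 in OT15 (adjusted p = 0.0816). Without any 1 array its adjusted p was 0.0178 to 0.0688, past the threshold only without an OT14 array or without the unnumbered OT7 WD-SCC array. Probe set 1421276_PM_a_at averaged 8.0 ± 0.26 in PD-SCC and 7.25 ± 0.31 in WD-SCC, a difference of 0.75 ± 0.20 (SE) that missed the threshold at an adjusted p of 0.0779 and met it at 0.0489 when lineage was no block.

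The remaining Dst probe sets share 1 RefSeq mRNA as their target in the annotation and leaned the other way. Probe set 1421117_PM_at stood at 4.44 and 4.08 in OT7, 4.35 in OT14 and 4.51 in OT15 PD-SCC cells, against 7.03 and 7.53 in OT7, 5.11 in OT14 and 4.75 in OT15 WD-SCC cells. The OT7 WD-SCC arrays were high, and those of OT14 and OT15 lay close to the PD-SCC arrays. Its mean was 4.35 ± 0.19 in PD-SCC and 6.10 ± 1.38 in WD-SCC, and the difference of -1.76 ± 0.55 did not pass (SE, adjusted p = 0.110), though it passed within OT7 (-3.02, adjusted p = 0.0227). Probe set 1450119_PM_at averaged 4.15 ± 0.18 in PD-SCC and 4.94 ± 0.72 in WD-SCC (difference -0.79 ± 0.25 SE, adjusted p = 0.113) and passed within OT7 as well (-1.32, adjusted p = 0.0430).

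Within an array, the contrast with the brightest Dst probe set tests whether stage differences disagree. The log2 value of 1421117_PM_at minus that of 1423626_PM_at was -4.25 and -4.70 in OT7, -4.36 in OT14 and -4.40 in OT15 PD-SCC cells, against 0.50 and 0.53 in OT7, -2.77 in OT14 and -1.93 in OT15 WD-SCC cells. The contrast was lower on every PD-SCC array than on any WD-SCC array. In OT15 it lay mostly in 1423626_PM_at, which rose by 2.24 while 1421117_PM_at differed by -0.23. In OT14 these differences were 0.83 and -0.76. Probe set 1450119_PM_at differed by -0.05 in OT14 and -0.49 in OT15. Both weaker probe sets lay not far above the bacterial control on PD-SCC arrays, which limits the fall they can show. Opposite movement within OT14 and OT15 is thus not shown by the contrast. The stage difference of 1421117_PM_at minus that of 1423626_PM_at was -3.51 ± 0.60 (SE, adjusted p = 0.0233). For 1450119_PM_at the contrast was -2.55 ± 0.42 (adjusted p = 0.0221) and for 1421276_PM_a_at it was -1.0 ± 0.32 and did not pass (adjusted p = 0.105). Of 10 such contrasts in the group 3 passed, among them that of Lama3 with a probe set near background, where 7.93% of all 11801 did. Leaving out an OT15 array, either OT7 PD-SCC array or WD-SCC array 2 of OT7 ended the call of both Dst contrasts, with adjusted p up to 0.0836 and 0.0797. Their differences stayed between -4.15 and -3.12 and between -3.10 and -2.30.

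**Figure D3:**
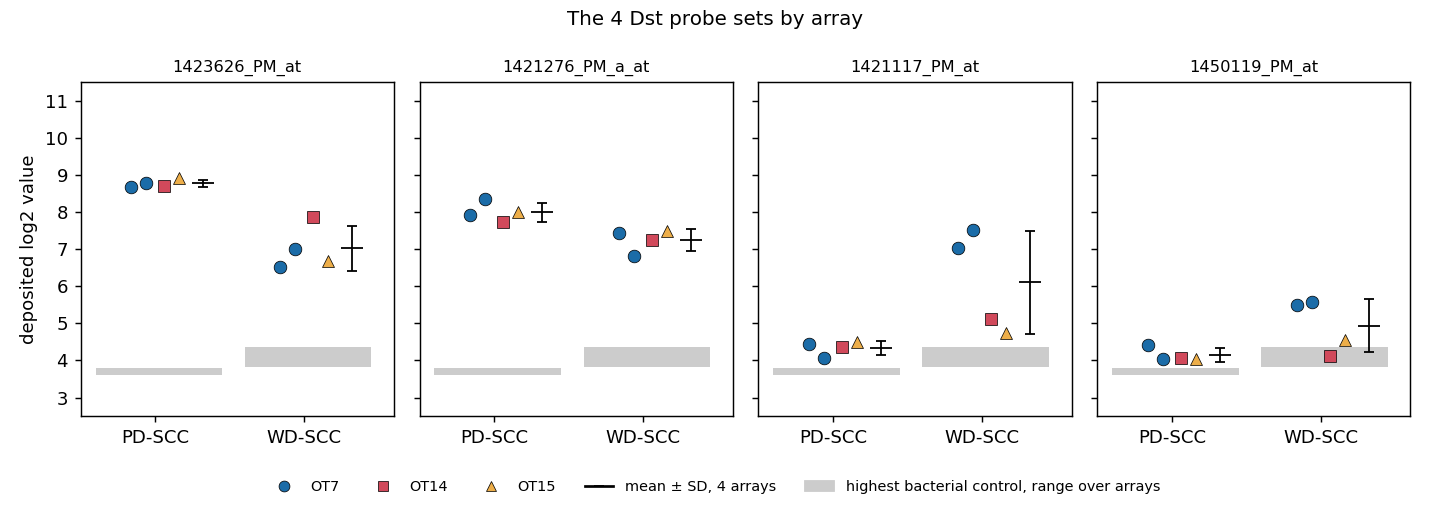
Deposited log2 value (y axis) of the 4 Dst probe sets on every array, PD-SCC left and WD-SCC right, with symbols for lineages, bars for the mean ± SD of 4 arrays and grey bands for the highest bacterial control. The left pair of probe sets is higher in PD-SCC (means 8.77 against 7.02 and 8.0 against 7.25), and the right pair is lower there on average, with the OT7 WD-SCC arrays highest.

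Most calls within a lineage came from OT7, which alone has 2 arrays per stage, while the differences of several members were larger in OT14 or OT15. Within OT7, 6 of 18 probe sets were higher (background 4.71%) and 5 were lower (background 1.69%). Within OT14, 0 were higher (background 0.02%) and 1 was lower (background 0.151%), while 7 and 3 had an unadjusted p under 0.05 in limma. Within OT15, 0 were higher (background 0.264%) and 1 was lower (background 0.371%), while 8 and 2 had an unadjusted p under 0.05. These values rest on the spread of the OT7 arrays, which is assumed for the lineages with 1 array per stage. The backgrounds are for adjusted calls. No share of all probe sets is given here for the unadjusted counts within OT14 and OT15, so those counts cannot be weighed against them. The limma test of a difference in stage effect between lineages called 0 of 18 probe sets and 0.0% of all, and 0 of the members' probe sets tested (8 to 18) under its 5 alternatives. Before adjustment, 8 of 18 lay under 0.05, against 10.9% of all. The smallest limma values were those of Col17a1 (adjusted p = 0.204) and Lamb3 (adjusted p = 0.206).

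Of 10 measured laminin receptors and their partners, 1 was higher and 2 were lower in PD-SCC, where 6.72% and 4.25% of all genes were. So few genes do not set the list apart from that background, and its median of -0.21 stood against -0.06 over all genes. Sdc4, the heparan sulfate proteoglycan syndecan 4, rose by 1.5 ± 0.25 (SE, 10.83 ± 0.27 in PD-SCC and 9.33 ± 0.63 in WD-SCC, adjusted p = 0.0271). Itga2, the integrin α2 subunit, fell by 3.14 (SE 0.47, 5.12 ± 1.14 in PD-SCC and 8.26 ± 0.41 in WD-SCC, adjusted p = 0.0198). Bcam, a receptor of the laminin α5 chain, fell by 1.49 (SE 0.24, 4.25 ± 0.15 in PD-SCC and 5.75 ± 0.50 in WD-SCC, adjusted p = 0.0232). Dag1, dystroglycan, differed by 0.91 ± 0.26 without passing (adjusted p = 0.0929).

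The subunits of the hemidesmosomal integrin had opposite signs in different lineages. Itgb4 stood at 8.29 and 7.12 in OT7, 7.14 in OT14 and 8.44 in OT15 PD-SCC cells, against 8.61 and 9.09 in OT7, 8.84 in OT14 and 6.23 in OT15 WD-SCC cells. The OT15 WD-SCC array was the lowest of all 8, as it was the lowest WD-SCC array for Lamb3 and Col17a1. The difference over lineages was -0.45 ± 0.70 (SE, adjusted p = 0.706), and within them -1.14 in OT7, -1.70 in OT14 and 2.21 in OT15. Itga6, whose protein was used for the sort, differed by -0.30 ± 0.72 (SE, adjusted p = 0.812), with -1.67 in OT7, -0.40 in OT14 and 2.53 in OT15. The test between lineages did not pass for either (adjusted p = 0.370 for Itgb4 and 0.206 for Itga6). Itga3 and Cd151, named after their values were seen, encode another laminin-binding integrin subunit and its tetraspanin partner. Both had the same signs, -0.93, -1.0 and 1.79 for Itga3 and -0.88, -0.22 and 1.41 for Cd151 in OT7, OT14 and OT15. The rest of the 10 measured receptors and partners did not repeat these signs. Itgb1 had -0.41, 0.51 and 1.51 for the lineages in the same order. Itga7, Dag1 and Sdc4 had positive differences in every lineage, and Itga2 and Bcam had negative ones.

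Among 18 measured partners in the basement membrane 1 was higher and 0 were lower, where 6.72% and 4.25% of all genes were, so the counts stay near the background. At an unadjusted p under 0.05 in limma, 3 were higher and 3 lower, and the median was 0.01, against -0.06 over all genes. For such unadjusted counts no share over all genes is given here. Hspg2, which encodes the heparan sulfate proteoglycan perlecan, stood at 8.15 and 8.67 in OT7, 7.73 in OT14 and 8.51 in OT15 PD-SCC cells, against 5.73 and 6.14 in OT7, 5.56 in OT14 and 5.08 in OT15 WD-SCC cells. No array of one stage overlapped the other, and Hspg2 rose by 2.64 ± 0.25 (SE, adjusted p = 0.00703). Col4a2 (-1.52 ± 0.37, adjusted p = 0.0635), Col7a1, the anchoring fibril collagen (-1.26 ± 0.41, adjusted p = 0.116), and Col18a1 (0.83 ± 0.27, adjusted p = 0.121) did not pass. Of 3 other laminin chains 0 passed, with 1 at an unadjusted p under 0.05. That was Lama2, the α2 chain of muscle and nerve, at 4.44 ± 0.14 in PD-SCC and 5.50 ± 0.82 in WD-SCC (difference -1.07 ± 0.39 SE, adjusted p = 0.146). Lama1 lay under the bacterial control on all 8 arrays, and Lamc3 exceeded it on 1 PD-SCC array, with differences of -0.18 and -0.16. Of 4 laminin-processing proteases 0 passed, and 0 had an unadjusted p under 0.05. Their differences were 0.80 for Bmp1, 0.26 for Mmp14 and 0.95 for Mmp2, and Tll1 lay under the control on all arrays. Lama4 was not analysed here.

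Of 6 measured keratins of basal and of activated keratinocytes, 5 were lower and 0 higher, where 4.25% and 6.72% of all genes were. Their median was -6.13, against -0.06 over all genes. Krt5 averaged 4.16 ± 0.17 in PD-SCC and 11.26 ± 0.49 in WD-SCC and fell by 7.10 (SE 0.15, adjusted p = 0.000163). Its partner Krt14 averaged 5.73 ± 1.45 in PD-SCC and 10.74 ± 0.38 in WD-SCC and fell by 5.01 (SE 0.57, adjusted p = 0.0108). Krt15, also a basal keratin and named after its values were seen, did not pass (difference -0.43 ± 0.11 SE, adjusted p = 0.0741). Krt6b, of activated keratinocytes, was at least 76.1-fold lower (adjusted p = 0.00592), and its partner Krt16 fell by 5.65 (SE 0.57, adjusted p = 0.00785). Plectin and the brightest dystonin probe set were thus higher where the 5 called keratins were lower.

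Other plakins, the family of Plec and Dst, were lower in 3 of 5 cases with 0 higher, where 4.25% and 6.72% of all genes were. Their median was -3.99, against -0.06 over all genes. Dsp, the desmosomal plakin, was above the bacterial control on 1 of 4 PD-SCC arrays and averaged 3.53 ± 0.19 in PD-SCC and 11.02 ± 0.25 in WD-SCC (-7.49 ± 0.17 SE, adjusted p = 0.000163). Evpl and Ppl, plakins of the cornified envelope, fell by 4.09 (SE 0.44, adjusted p = 0.00944) and by 3.99 (SE 0.56, adjusted p = 0.0171). Eppk1 differed by -2.41 ± 0.55 (SE, adjusted p = 0.0545), and Macf1, the closest relative of dystonin, named for that after its values were seen, by -0.44 ± 0.21 (SE, adjusted p = 0.234).

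**Figure D4:**
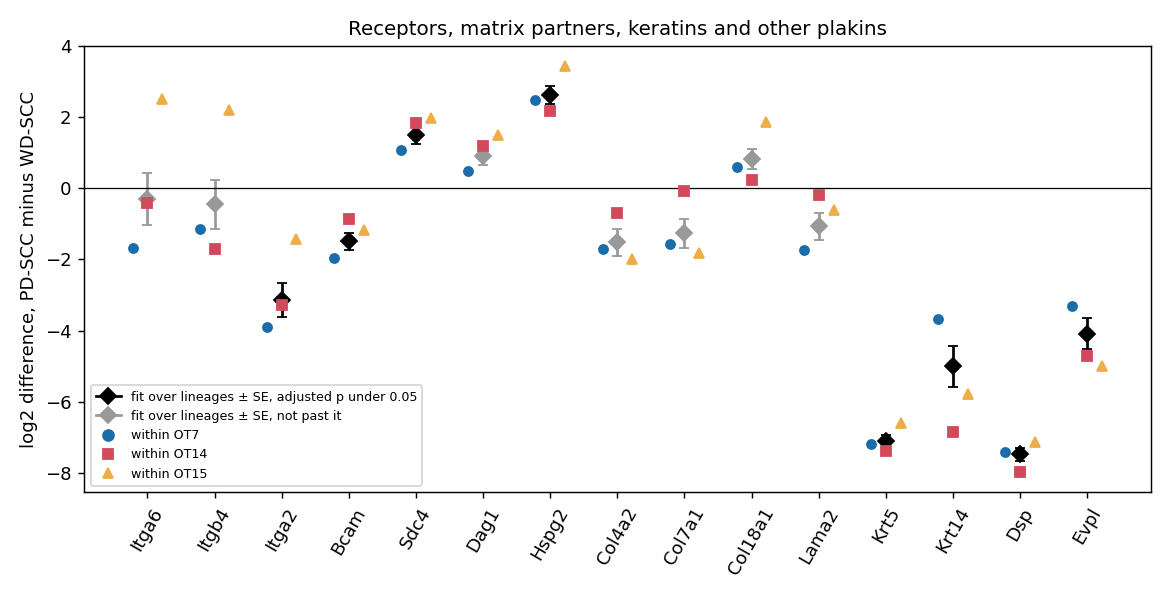
Log2 difference, PD-SCC minus WD-SCC (y axis), of 15 partner genes, with diamonds for the estimate over lineages, bars for its SE, black for an adjusted p under 0.05, and coloured symbols for each lineage. Itga6 and Itgb4 lie above 0 in OT15 (2.53 and 2.21) and below 0 in OT7 and OT14, while Krt5 lies between -7.40 and -6.60. Dsp lies lowest, but its PD-SCC values in OT14 and OT15 are under the bacterial control, so its points there only bound the difference.

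The epithelial identity of the sorted cells, which the labels give as tumour cells of a keratinocyte cancer, differed between stages. Of 8 epithelial genes 5 were lower and 0 higher in PD-SCC, where 4.25% and 6.72% of all genes were. Their median was -2.22, against -0.06 over all genes, and Cdh1, Esrp1 and Ovol1 lay under the bacterial control on all PD-SCC arrays. Cdh1, E-cadherin, was at least 4.31-fold lower (adjusted p = 0.00291), Esrp1 at least 2.44-fold lower (adjusted p = 0.00824), Epcam fell by 4.62 (SE 0.27, adjusted p = 0.00236) and Trp63, above the control on 1 of 4 PD-SCC arrays, had a fitted difference of -3.78 (SE 0.42, adjusted p = 0.00992). Keratins of simple epithelia, named after their values were seen, did not pass. Krt8 averaged 7.64 ± 2.84 in PD-SCC and 4.59 ± 1.42 in WD-SCC (difference 3.06 ± 1.54 SE, adjusted p = 0.257), with 5.73 in OT7 (adjusted p = 0.0308), 3.77 in OT14 and -3.01 in OT15. Krt18 averaged 7.93 ± 1.43 in PD-SCC and 8.70 ± 1.11 in WD-SCC (adjusted p = 0.346). The falls of Lama3, Lamb3 and Col17a1 thus stood beside lower values of these 5 epithelial genes, whose part in the result was not tested.

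Markers of other cell types that a graft can hold are given as the log2 of their summed linear values. Counts of markers at an unadjusted p under 0.05 have no share over all genes beside them here. For 8 fibroblast markers the sum was 10.20 to 11.75 on PD-SCC arrays and 9.19 to 13.06 on WD-SCC arrays, with 0 called and 1 higher at an unadjusted p under 0.05. For 6 pericyte and smooth muscle markers it was 7.67 to 8.81 in PD-SCC and 7.14 to 7.65 in WD-SCC, so the sum was higher on every PD-SCC array. The brightest of them, Pdgfrb and Acta2, differed by 0.72 and 1.86. Rgs5, Notch3, Myh11 and Des went the other way, by -0.43, -0.60, -0.34 and -0.32, and the list median was -0.33. Of the 6 markers 0 were called (1 higher and 2 lower at an unadjusted p under 0.05), Des lay under the control on all arrays and Rgs5 on all PD-SCC arrays. For 4 Schwann and neural markers the sum was 5.75 to 6.91 in PD-SCC and 6.07 to 6.32 in WD-SCC, with 0 called, 1 lower at an unadjusted p under 0.05 and Nefm under the control throughout. The part of these cells in the rise of Lamb1, Lamc1, Dst and Plec was not tested.

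Some markers of blood, vessel and muscle cells were lower in PD-SCC, as Lama3, Lamb3 and Col17a1 were, where 4.25% of all genes were lower. That share is for adjusted calls, and none is given here for the unadjusted counts. For 7 haematopoietic markers the sum was 6.68 to 7.49 in PD-SCC and 8.49 to 9.29 in WD-SCC, with 2 lower (Cd68 and Cd52). At an unadjusted p under 0.05, 4 were lower, and Ptprc and Itgam lay under the control on all 8 arrays. On WD-SCC arrays Cd68 was the brightest of them (7.48 to 7.91), except in OT14, where Lyz2 stood at 8.22. Lyz2 differed by 0.73 in OT7 and -0.04 in OT15, and Cd3e went the other way, by 0.52. For 8 endothelial markers it was 6.73 to 8.72 in PD-SCC and 7.35 to 10.74 in WD-SCC, with 2 lower (Cldn5 and Tie1), 4 lower at an unadjusted p under 0.05, Tie1 under the control on all PD-SCC arrays and Tek and Vwf on all arrays. For 5 skeletal muscle markers it was 5.89 to 6.06 in PD-SCC and 6.17 to 6.78 in WD-SCC, with 1 lower (Ckm), 2 lower at an unadjusted p under 0.05, Acta1 and Myh4 under the control on all arrays and Mylpf on all PD-SCC arrays. Most values in this sum lay near the control, which was itself higher on WD-SCC arrays (3.82 to 4.37) than on PD-SCC arrays (3.61 to 3.81). The muscle sum therefore cannot show a difference in muscle cells. The part of these cells in the fall of Lama3, Lamb3 and Col17a1 was not tested.

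The genes most like a member were those with the smallest mean absolute difference of centred log2 values over the 8 arrays. Patterns over these arrays that they share with the member follow from that choice. Closest to Lama3 were Krt14 (0.44), Shroom3 (0.60) and Ada (0.64). As Lama3 did, all 3 kept higher values in OT7 than in the other PD-SCC arrays, 7.02 and 6.94 for Krt14 against 4.39 in OT14 and 4.57 in OT15. Closest to Lamb3 were Il24 (0.53), Sprr3 (0.63) and Cbr2 (0.64), and closest to Col17a1 were Sprr3 (0.43), 2310011E23Rik (0.47) and Cbr2 (0.48), so 2 of the 3 names were shared. Sprr3, a small proline-rich gene of the cornified envelope, stood at 4.58 in OT15 WD-SCC cells, against 7.13 to 8.73 on the other WD-SCC arrays. Closest to Lamc1 were Sh3bgrl (0.13), Tuba1a (0.13) and Tle5 (0.17), with differences of 1.48, 1.66 and 1.11 between the stages.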

How the data were processed

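Biotin-labelled cRNA of sorted cells was hybridised to 8 Affymetrix arrays, per the labels' protocols. The authors deposited a table with a log2 value for each probe set on each array. The submitters' processing notes name affy and RMA, a method that corrects background, applies quantile normalization and summarises probes. For their versions, nothing was given in the sources used here. Probe set names follow the platform annotation, and a RefSeq table gave current symbols for 99.1% of genes by Entrez number. The 45141 probe sets comprised 104 controls, 28898 with 1 symbol, 551 with several and 15588 without. Brightest means the highest mean over the 8 arrays.

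Tests used R 4.3.3 with limma 3.58.1 (lmFit and eBayes, two-sided, Benjamini-Hochberg over all 45037 probe sets, threshold 0.05). Figures were drawn in Python 3.11.15 (matplotlib 3.10.9). The stage effect had lineage as a fixed block. Effects within lineages, and the F test between lineages, used a separate coefficient for every combination of lineage and stage, so the residual spread is that of OT7 alone. Probe set contrasts were fitted on differences from the brightest probe set of the gene. Where all arrays of a stage lay at or under their highest bacterial control, only a bound is given. The fits were tested on simulated data.

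Lineage pairs the stages, since per the series design each lineage progressed. Deviations from the stage means correlated at -0.03 in OT7, 0.05 in OT14 and 0.08 in OT15 across probe sets, so the values themselves do not show the pairing. The alternatives were no block, a random block, averaged OT7 arrays, the brightest probe set per gene, probe sets averaging at least 6 in their brighter stage, array weights, a trended and robust prior, scaling to the 75th percentile, cyclic loess and leaving out each array or lineage OT7.

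The members and lists were chosen with earlier results of these data known. The rule for named genes took every probe set of the members, up to 4 genes of each partner list with the smallest p, Itga6, Itgb4, Krt5, Krt14 and Dsp whatever their values and the 3 genes most like each of Lama3, Lamb3, Lamc1 and Col17a1. Other genes were named after their values were seen or as cell type markers. The partner lists held 59 genes in 7 lists, of which 54 had a probe set. The other genes of those lists, and some of the markers, are not reported here.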

Additional observations from a re-analysis of the deposited data

Results flagged for a closer look

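Of 36 groups of 4 arrays examined, 1 held an array far from the rest, where chance alone gives about 1 in 20. It was the Dst probe set 1450119_PM_at in PD-SCC, where array 1 of OT7 stood at 4.42 and the other PD-SCC arrays at 4.03 to 4.08. The gap to the next array was 0.878 of the group's range, above Dixon's critical value of 0.829 for 4 samples.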

How the results depend on the processing

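The 11 called probe sets kept their sign under each of the 18 alternatives that tested them (with the brightest probe set per gene 4 of the 11 are not tested, and with a mean of at least 6 Lamb1 1424113_PM_at is not), and 3 of them (1427512_PM_a_at of Lama3, 1451241_PM_at of Lamb1 and 1423886_PM_at of Lamc1) stayed past the threshold without any 1 array. The count of 8 higher and 3 lower became 3 and 1 with averaged OT7 arrays, 0 and 1 without lineage OT7, 3 to 6 and 1 to 3 without any 1 array, and 4 higher with the brightest probe set per gene, where 8 probe sets are tested. Without the replicate block, the paired structure being ignored, it was 10 and 3. Within OT7 the count of 11 was 7 with the brightest probe set. Within OT14 the count of 1 was 3 with the brightest probe set, 3 with a mean of at least 6, 2 after cyclic loess, 3 after scaling to the 75th percentile and 3 with a trended and robust prior. Within OT15 the count of 1 was 5 with a mean of at least 6 and 4 after scaling to the 75th percentile. The 3 contrasts became 0 with averaged OT7 arrays, 1 with a mean of at least 6, where 6 are tested, and 1 to 3 without any 1 array. Over all probe sets, 2473 were higher and 1281 lower. These were 320 and 276 with averaged OT7 arrays, 751 to 1550 and 404 to 1068 without any 1 array, and 36 and 204 without OT7. They were 1642 and 1455 after cyclic loess, and 2306 and 2071 after scaling to the 75th percentile. With a mean of at least 6, 8858 probe sets were tested and 2580 were higher. Where no cause follows from fewer arrays or probe sets, it was not tested. Leaving out 1 array of OT14 or OT15 removes that lineage from the estimate. Without the scanner files, which were not analysed here, another background correction was not possible. Signal over background limits probe sets near the bacterial controls, for which some folds are bounds.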
